A study of Mus musculus with 23 samples.

Results

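Complement is a set of plasma and locally made proteins that tag microbes for uptake and can open pores in their membranes. The classical pathway starts with the recognition protein C1q and its proteases C1r and C1s, which cut C4 and C2. The alternative pathway amplifies through factor B. Both pathways cut C3, the central protein, and then C5, which begins the membrane attack complex. Inhibitors in plasma and on cells limit each step. The liver makes most plasma complement, and lung epithelial cells also express several of the genes, C3 among them.

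The 9 complement genes described here are C1ra and C1s1 (the mouse C1r and C1s proteases), C4b (C4), C2, C3, Cfb (factor B), Hc (the mouse gene for C5), Cfi (factor I) and Serping1 (the C1 inhibitor). They were chosen by name as components or regulators of the cascade, with earlier results of these data known. The shares of all genes set beside their counts are therefore given for scale and are no test of the 9 genes as a set. All 9 were found among the 41073 genes of the count tables, and all 9 passed the filter on low counts in every comparison.

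The measurements were bulk RNA sequencing of wild-type C57BL/6 lung epithelial cells selected for the surface protein EpCAM and grown on transwells with the upper face in air (air-liquid interface). The study asked how NTHi (non-typeable Haemophilus influenzae), a bacterium that colonises airways, affects such cultures as they regenerate. The groups were fresh cells on the day of isolation (3 libraries), untreated cells on the day of airlift, when the upper face is first exposed to air (6), day 4 cultures with NTHi (7) and untreated day 4 cultures as controls (7). Each of 3 experiments, named A, B and C, held all 4 groups. The labels give neither the animals' age nor the dose of NTHi. They also leave unsaid whether replicates came from different mice or wells, so each p-value rests on spread among libraries that could be technical only.

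Libraries held 32323375 to 39081663 counts. For the epithelial label, marker genes were detected in all 4 groups. The 7 pan-epithelial markers summed to 8955 to 9544 CPM (read counts scaled to normalised library size) in fresh cells and 8323 to 10380 CPM at airlift. They summed to 8095 to 8948 CPM with NTHi and 6634 to 7835 CPM in controls, with 4 of 7 called higher with NTHi and 2 lower. Epcam stood at 464 to 565 CPM in NTHi cultures and 353 to 459 CPM in controls, whereas Krt8 averaged 2956 CPM in fresh cells and 1584 CPM in controls. The label says airway cells, yet the alveolar type 2 gene Sftpc averaged 63100 CPM in fresh cells beside 153100 CPM for the club cell gene Scgb1a1. Macrophage genes were detected in every group. The libraries control C1 and NTHi C3 stood apart, with mean correlations of 0.982 and 0.977 to the other libraries of their own group. With both left out, 7 of the complement genes were still called higher with NTHi and 2 lower.

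The first comparison asked what NTHi did to complement expression by day 4. Transcripts of both C1 proteases, C2, C3, factor B, factor I and the C1 inhibitor were higher in NTHi cultures than in controls, and transcripts of C5 and C4 were lower. In numbers, 7 of the 9 genes were called higher and 2 lower, at a Benjamini-Hochberg adjusted p below 0.05 in edgeR's quasi-likelihood test over all genes. Of the 16337 genes tested, 40.5% were called, 20.1% higher and 20.4% lower; without TMM, on library totals, the split was 2282 higher and 4415 lower, against 3281 and 3338. The median log2 fold change was 1.09 over the 9 genes and 0.00 over all genes tested. The CPM ranges of the NTHi and control libraries did not overlap for 7 of the 9 genes, against 15.8% of all genes.

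C3 had the highest level per exon length of the 9 genes in NTHi cultures. Its libraries stood at 1809 CPM in the lowest library, 2272 in the median and 2517 in the highest, against 366, 387 and 489 CPM in controls. No library of either group reached the other group's range. C3 thus averaged 2245 ± 253 CPM with NTHi and 408 ± 52.2 CPM in controls (SD, n = 7 each), a log2 fold change of 2.46 ± 0.06 (SE; edgeR, adjusted p = 3.14e-13). The ratio within experiments A, B and C lay between 2.43 and 2.51 on the log2 scale. Cfb encodes the protease that joins C3b in the alternative pathway's convertase. It stood at 577, 660.0 and 950.1 CPM (lowest, median, highest) in NTHi cultures and at 175, 219 and 360 CPM in controls, again without overlap. Its log2 fold change was 1.56 ± 0.15 (edgeR, adjusted p = 6.26e-07). Within the controls, the SD of Cfb was 71.1 CPM around a mean of 239.9 CPM.

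The C1 proteases stood at far lower levels than C3 per exon length. C1s1, the protease that cuts C4 and C2, had 42.9, 54.1 and 77.3 CPM in NTHi cultures (lowest, median, highest) and 4.27, 6.18 and 9.68 CPM in controls. This was the steepest rise among the 9 genes, 8.78-fold, at a log2 fold change of 3.13 ± 0.09 (edgeR, adjusted p = 1.45e-12). C1ra, which activates C1s, had 50.9, 51.6 and 61.3 CPM in NTHi cultures and 13.6, 16.2 and 21.1 CPM in controls. The groups did not overlap for either protease, and the log2 fold change of C1ra was 1.74 ± 0.06 (edgeR, adjusted p = 9.71e-12). Both genes have close copies in mouse: 48.0% of the 50-base windows of C1ra also occur in C1rb, and 24.3% of those of C1s1 in C1s2. How reads were split between copies is uncertain; the copies themselves had at most 22 counts of C1rb and 19 of C1s2 in any NTHi library. An antisense gene, Gm16567, overlaps 18.4% of the C1s1 exons in the GENCODE M21 annotation, and the strand setting of the counts is not given in the sources used here.

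The substrates of the C1 proteases moved apart. C2 had 4.85, 5.64 and 7.65 CPM (lowest, median, highest) in NTHi cultures and 1.67, 3.44 and 4.24 CPM in controls. The groups stood clear of each other, and C2 rose by a log2 fold change of 0.99 ± 0.20 (edgeR, adjusted p = 0.000832). The call was lost in experiment A alone (0.81, edgeR, adjusted p = 0.057) and in C alone (0.99, edgeR, adjusted p = 0.0744). C4b was low, at 0.784, 1.07 and 2.45 CPM in NTHi cultures and 1.65, 2.35 and 4.11 CPM in controls, and the ranges overlapped. It fell by 0.998 ± 0.181 on the log2 scale (edgeR, adjusted p = 0.00041). C4b shares 35.2% of its 50-base windows with C4a, its neighbouring copy, so the split of reads between them is uncertain; C4a averaged 1.24 ± 0.42 CPM with NTHi and 1.06 ± 0.25 CPM in controls and was not called. A read-through gene model, Gm20547, covers 79.5% of the Cfb exons and 42.8% of the C2 exons in GENCODE M21 on the same strand. Cfb and C2, which are related genes, share none of their 50-base windows. Opposite-strand genes cover 4.16% of the C2 exons (Zbtb12) and 1.21% of the Hc exons (Gm13449) in the same annotation.

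Hc moved the opposite way to C3, although C5 is cut right after C3 in the cascade. Hc had 8.72, 9.98 and 15.5 CPM (lowest, median, highest) in NTHi cultures and 87.3, 115 and 134 CPM in controls, a wide gap with no overlap. It averaged 10.9 ± 2.39 CPM with NTHi and 111 ± 19.5 CPM in controls (SD, n = 7 each). The fall was 10.2-fold, a log2 fold change of -3.35 ± 0.10 (edgeR, adjusted p = 1.45e-12), and lay between -3.65 and -3.13 within the 3 experiments. Markers of alveolar type 2 cells, 10 genes, moved in the same libraries: their summed level was 4138 to 6742 CPM in NTHi cultures and 9476 to 14940 CPM in controls, with 4 of 10 called higher, 5 lower and none at 0. Much of the sum was Lyz2, which macrophages also express, at 2703 CPM with NTHi and 8327 CPM in controls on average; the other 9 summed to 2946 to 3263 CPM with NTHi and 3969 to 4640 CPM in controls. The markers did not move together: Sftpc averaged 434 CPM with NTHi and 2168 CPM in controls, whereas Sftpd averaged 1779 and 823.7 CPM and Slc34a2 380.7 and 190.2 CPM. Other lists moved too: 8 of 8 alveolar type 1 markers and 6 of 7 club cell markers were called lower with NTHi, and 0 higher. The part of any of these cells in the fall of Hc was not tested. In bulk RNA fewer cells of a type and less RNA per cell cannot be told apart.

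The regulators were low in both groups. Cfi encodes the plasma protease that cuts C3b and C4b. It had 2.59, 3.27 and 4.39 CPM (lowest, median, highest) in NTHi cultures and 1.15, 1.63 and 2.60 CPM in controls, so that the ranges overlapped at their edges. Its log2 fold change was 1.02 ± 0.14 (edgeR, adjusted p = 2.47e-05). Serping1, whose product blocks C1r and C1s, had 3.76, 4.44 and 6.79 CPM in NTHi cultures and 1.69, 2.33 and 2.93 CPM in controls. Its groups did not overlap, and its log2 fold change was 1.09 ± 0.10 (edgeR, adjusted p = 5.47e-07). Each of the 9 genes had the same sign in all 3 experiments.

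**Figure D1:**
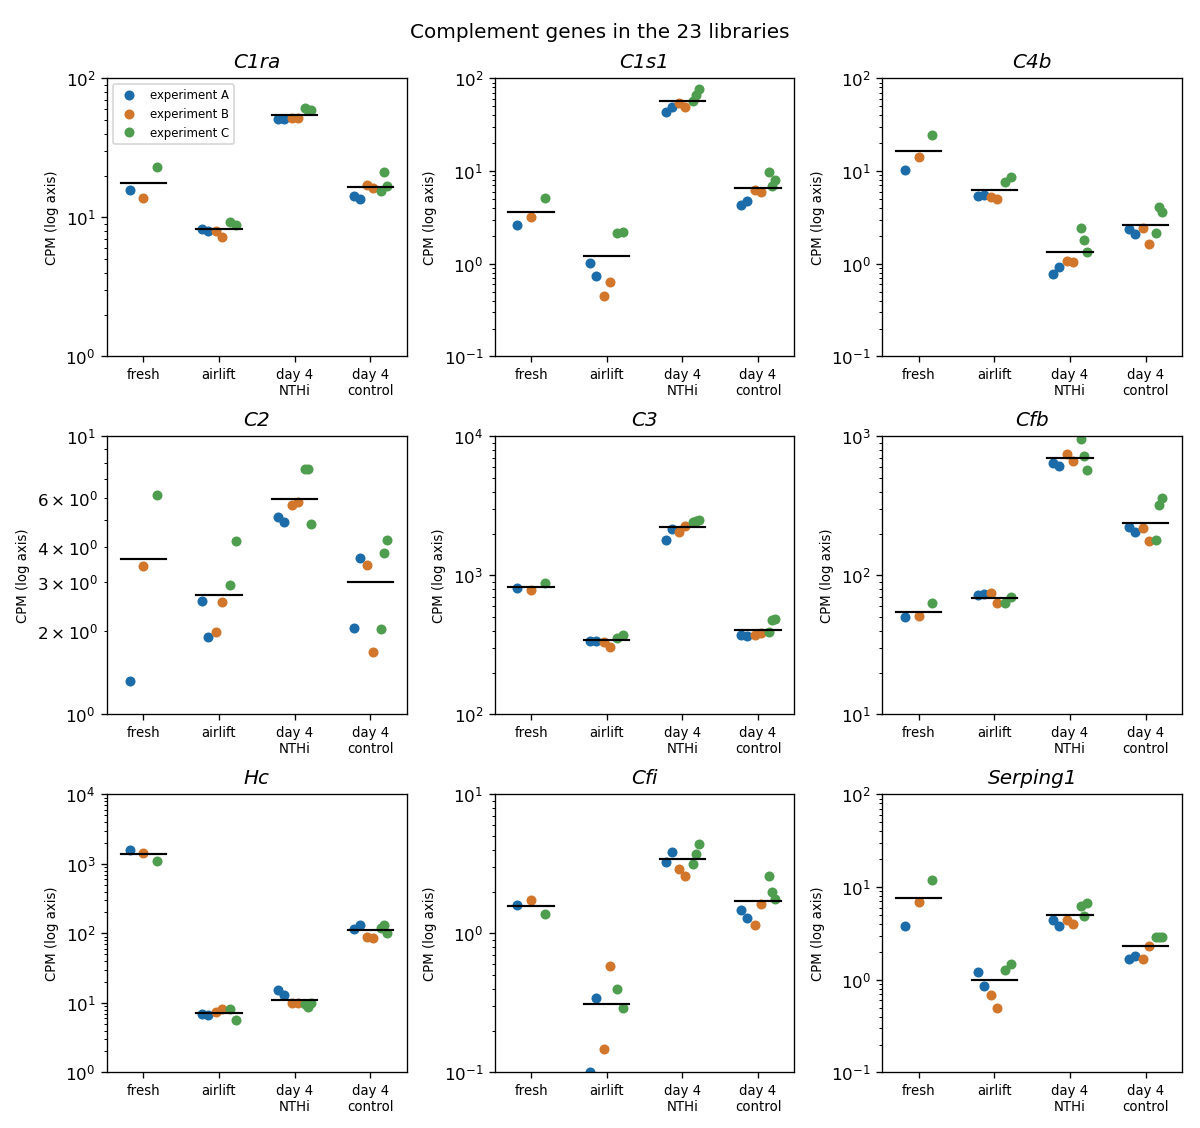
CPM (log axis) of the 9 complement genes in each of the 23 libraries, by group and coloured by experiment, with a line at the group mean. C3, Cfb, C1s1 and C1ra are highest in the day 4 NTHi libraries, whereas Hc is highest in fresh cells and stands at 8.72 to 15.5 CPM in day 4 NTHi libraries against 87.3 to 134 CPM in day 4 control libraries.

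Whether the effect of NTHi differed between experiments A, B and C was tested by an interaction. In edgeR's quasi-likelihood test 0 of 16337 genes were called, and so 0 of the 9 (adjusted p = 0.9997 for each). At an unadjusted p below 0.05 there were 675 genes, of which Hc was the only 1 of the 9. DESeq2's likelihood ratio test called 5 genes, none of them among the 9. A minimum log2 fold change of 1, tested in place of any change, left 4 genes called higher (C3, Cfb, C1s1 and C1ra) and 1 lower (Hc).

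The stretches of DNA just before the start sites of C3, C1s1, C1ra and Hc are shown because these are the 4 of the 9 genes matched in the RefSeq promoter sequences (build GRCm38.p6), and NTHi cultures had more of the first 3 and less of Hc than controls. Each is the 250 bases before the annotated start, read 5′ to 3′ along the gene's own strand. Capitals mark matches, on either strand, to 4 short motifs: an NF-kB type motif (GGGA, any 4 bases, CC), a STAT type motif (TTC, any 3 bases, GAA), a C/EBP type motif (TTGC, any 2 bases, AA) and an interferon response type motif (GAAA, any 2 bases, GAAA). C1s1 has a further annotated start, whose window overlaps the one shown. The windows are C3 at chr17:57228137-57228386 (minus strand), C1s1 at chr6:124542360-124542609 (minus strand), C1ra at chr6:124512371-124512620 (plus strand) and Hc at chr2:35061413-35061662 (minus strand).
C3: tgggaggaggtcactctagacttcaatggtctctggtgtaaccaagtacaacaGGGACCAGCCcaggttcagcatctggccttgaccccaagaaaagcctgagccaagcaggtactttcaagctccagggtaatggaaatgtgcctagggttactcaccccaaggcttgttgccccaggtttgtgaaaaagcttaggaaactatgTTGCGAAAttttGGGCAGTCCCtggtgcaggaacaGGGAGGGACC
C1s1: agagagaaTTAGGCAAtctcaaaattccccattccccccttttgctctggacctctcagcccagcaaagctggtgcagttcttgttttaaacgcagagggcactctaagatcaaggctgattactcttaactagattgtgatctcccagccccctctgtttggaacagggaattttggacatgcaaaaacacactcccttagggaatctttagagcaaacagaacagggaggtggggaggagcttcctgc
C1ra: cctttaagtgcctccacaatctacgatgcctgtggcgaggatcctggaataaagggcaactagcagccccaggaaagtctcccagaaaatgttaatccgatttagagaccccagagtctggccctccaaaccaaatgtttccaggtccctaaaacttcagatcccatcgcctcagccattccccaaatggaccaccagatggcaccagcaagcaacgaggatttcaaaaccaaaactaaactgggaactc
Hc: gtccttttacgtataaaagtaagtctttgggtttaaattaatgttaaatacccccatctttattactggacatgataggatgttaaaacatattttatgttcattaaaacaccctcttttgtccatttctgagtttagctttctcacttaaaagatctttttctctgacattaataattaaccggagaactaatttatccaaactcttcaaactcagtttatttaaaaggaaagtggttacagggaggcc

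The C3 window held 3 matches to the NF-kB type motif, at bases -197 to -188, -33 to -24 and -10 to -1 counted from the start site, and 1 match to the C/EBP type motif at -45 to -38. None of these matches overlapped another. The C1s1 window shown held 1 match to the C/EBP type motif, at -242 to -235, and its other window 1 match to the NF-kB type motif. The windows of C1ra and Hc held no match to the 4 motifs. Among 32851 RefSeq windows of the same length, 17.6% held the NF-kB type, 7.02% the STAT type, 9.56% the C/EBP type and 2.98% the interferon response type motif. These are matches of letters, and no binding was measured.

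The next comparison asked what isolation and culture up to airlift did, before any NTHi. Expression of C5, C3, both C1 proteases, C4, factor I and the C1 inhibitor was lower at airlift than in fresh cells. Of the 9 genes, 7 were called lower and 0 higher (edgeR), and the other two, Cfb and C2, were not called. In this comparison 74.6% of 18302 genes were called, 37.9% higher and 36.7% lower, so a call here sets a gene apart little. Scaling by library totals alone gave 10131 genes higher and 4223 lower, against 6928 and 6718, with the median of all genes at 0.49; the 7 calls held. The median log2 fold change was -1.34 over the 9 genes and 0.00 over all genes tested. Ranges did not overlap for 7 of the 9 genes, against 66.9% of all genes.

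Hc fell most. It had 5.61, 7.23 and 8.28 CPM at airlift (lowest, median, highest), against 1605, 1455 and 1102 CPM in fresh cells of experiments A, B and C. In fresh cells it had the highest level per exon length of the 9 genes, and at airlift its level was 190-fold lower, a log2 fold change of -7.57 ± 0.16 (edgeR, adjusted p = 2.73e-17). The alveolar type 2 markers were lower at this step too. Their summed level was 3714 to 4109 CPM at airlift and 99750 to 132500 CPM in fresh cells, and 10 of 10 fell. Without Lyz2 the sums were 1448 to 1553 CPM at airlift and 82060 to 108000 CPM in fresh cells. Of the 7 club cell markers 7 were called lower as well. Of the 8 alveolar type 1 markers 4 were called higher and 4 lower. The part of any of these cells in the fall of Hc was not tested. C3 fell less, to 308, 338 and 375 CPM at airlift, against 814, 783 and 876 CPM in fresh cells. Its log2 fold change was -1.26 ± 0.07 (edgeR, adjusted p = 5.14e-12), close to the median of the 9 genes.

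The genes at lower levels followed the same direction with more spread. Serping1 averaged 1.005 ± 0.376 CPM at airlift (SD, n = 6), against 3.80, 6.99 and 12.0 CPM in fresh cells of experiments A, B and C. The fresh libraries thus spread widely but stood above every airlift library. Its log2 fold change was -2.85 ± 0.22 (edgeR, adjusted p = 1.42e-09). Cfi had 0.100 to 0.579 CPM at airlift and 1.39 to 1.73 CPM in fresh cells, a log2 fold change of -2.34 ± 0.35. C1s1 fell by 1.65 ± 0.24, C4b by 1.34 ± 0.16 and C1ra by 1.06 ± 0.11 on the log2 scale, and none of these had overlapping ranges. C4b stood at 10.4, 14.2 and 24.7 CPM in fresh cells of experiments A, B and C, and at 5.004 to 8.59 CPM at airlift.

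Cfb and C2 were the exceptions. Cfb had 63.1 to 74.6 CPM at airlift and 49.9, 50.7 and 63.7 CPM in fresh cells, with a log2 fold change of 0.37 ± 0.17 that missed the threshold (edgeR, adjusted p = 0.0564). It was called higher in 11 of the alternatives, with log2 fold changes from 0.37 to 0.86; leaving out airlift C1, airlift C2, control C1 or control C3 was enough (adjusted p = 0.0204 to 0.0438). C2 had 1.90 to 4.21 CPM at airlift and 1.31, 3.42 and 6.14 CPM in fresh cells, which spread more than the groups differed. Its log2 fold change was -0.35 ± 0.32 (edgeR, adjusted p = 0.322), and without the fresh library A it was -0.74 and called (adjusted p = 0.0387). With library totals alone its sign turned (0.13, adjusted p = 0.726).

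**Figure D2:**
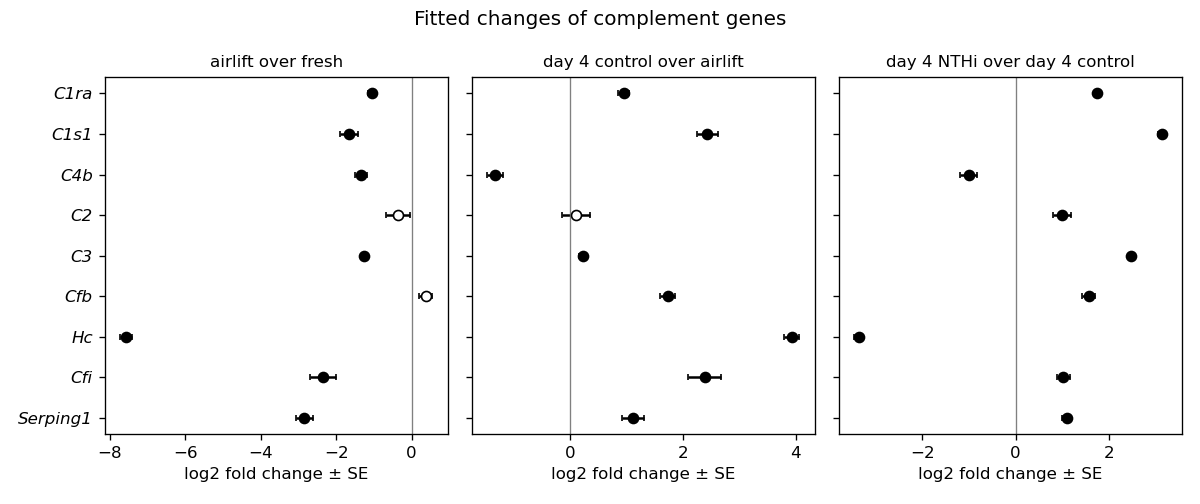
Log2 fold changes with their SE for the 9 genes at airlift over fresh, day 4 control over airlift and day 4 NTHi over day 4 control; filled points were called at an adjusted p below 0.05, and the 3 panels have their own scales. Hc lies farthest from 0 in all 3 panels, at -7.57, 3.93 and -3.35, and C4b lies below 0 in each.

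The step from airlift to day 4 without NTHi was compared next. Of the 9 genes, 7 were called higher in day 4 controls than at airlift (C3, Cfb, C1s1, C1ra, Cfi, Hc and Serping1) and 1, C4b, lower (edgeR). Among 18302 genes 54.5% were called, 26.9% higher and 27.7% lower. The median log2 fold change was 1.13 over the 9 genes and -0.02 over all genes tested, and ranges did not overlap for 7 of the 9 genes, against 28.3% of all genes.

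Hc rose 15.2-fold, to 87.3, 115 and 134 CPM (lowest, median, highest) in day 4 controls against 5.61, 7.23 and 8.28 CPM at airlift, a log2 fold change of 3.93 ± 0.13 (edgeR, adjusted p = 9.9e-14). The summed alveolar type 2 markers stood at 9476 to 14940 CPM in controls and at 3714 to 4109 CPM at airlift, and 9 of 10 were called higher and 0 lower. Without Lyz2 they summed to 3969 to 4640 CPM in controls and 1448 to 1553 CPM at airlift. Of the 8 alveolar type 1 markers 6 were called higher and 0 lower. Of the 7 club cell markers 3 were called higher and 3 lower. The part of any of these cells in the rise of Hc was not tested. C1s1 rose by 2.44 ± 0.19 and Cfi by 2.39 ± 0.29 on the log2 scale, each without overlap. Cfb rose by 1.73 ± 0.14, to 175 to 360 CPM in controls against 63.1 to 74.6 CPM at airlift. Serping1 rose by 1.12 ± 0.20 and C1ra by 0.95 ± 0.09.

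C3, by contrast, hardly rose: its log2 fold change was 0.22 ± 0.05 (edgeR, adjusted p = 0.00195), with 366 to 489 CPM in controls and 308 to 375 CPM at airlift, ranges that overlap. In experiment B or C alone it was not called (adjusted p = 0.0803 and 0.0809). C4b fell again, by 1.33 ± 0.14 on the log2 scale (edgeR, adjusted p = 2.24e-07), to 1.65 to 4.11 CPM in controls against 5.004 to 8.59 CPM at airlift. C2 was not called, at a log2 fold change of 0.11 ± 0.25 (edgeR, adjusted p = 0.723). Only C4b thus fell at each of the 3 steps that were tested, of which the last was NTHi over control.

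Against fresh cells, the day 4 cultures did not return to the starting pattern. In controls, 2 of the 9 genes were called higher than in fresh cells and 4 lower (edgeR), where 76.6% of all genes were called, 38.8% higher and 37.7% lower. Cfb and C1s1 were higher, by 2.10 ± 0.18 and 0.78 ± 0.22 on the log2 scale. C3, C4b, Hc and Serping1 were lower, with C3 at 366 to 489 CPM in controls and 783 to 876 CPM in fresh cells. C1ra, C2 and Cfi had log2 fold changes of -0.10 ± 0.11, -0.24 ± 0.31 and 0.05 ± 0.31 and were not called. The sign of C1ra turned on library totals without TMM (0.37, adjusted p = 0.00606), a scaling under which the median of all genes was 0.49 in this comparison, against 0.02; C2 was called higher in experiment A alone (1.15, adjusted p = 0.0151).

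With NTHi, 6 of the 9 genes were higher than in fresh cells and 3 lower (edgeR), where 77.5% of 18586 genes were called, 39.0% higher and 38.5% lower. C1s1 rose by 3.93 ± 0.21, Cfb by 3.66 ± 0.20, C1ra by 1.64 ± 0.10, C3 by 1.42 ± 0.07 and Cfi by 1.07 ± 0.27 on the log2 scale. C3 had 1809 to 2517 CPM with NTHi against 783 to 876 CPM in fresh cells, whereas without NTHi it was lower than in fresh cells. Hc stayed far below fresh cells, at a log2 fold change of -6.98 ± 0.14, and C4b at -3.66 ± 0.17.

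The calls of C2 and Serping1 against fresh cells were lost under several settings. C2 was higher by 0.74 ± 0.29 (adjusted p = 0.0219), but by 0.38 without the fresh library A (adjusted p = 0.231) and by 1.16 without the fresh library C; the call was also lost with no experiment term (0.71, adjusted p = 0.0584) and without experiment B (0.75, adjusted p = 0.0793). Serping1 fell by 0.63 ± 0.18 (adjusted p = 0.00349), but its log2 fold change was -0.41 without the fresh library C (adjusted p = 0.099), -0.21 with library totals alone (adjusted p = 0.301) and 0.12 in experiment A alone. Against airlift, 8 of the 9 genes were higher with NTHi and C4b was lower (edgeR), where 58.1% of genes were called, 28.6% higher and 29.5% lower; the median log2 fold change of the 9 genes was 2.69. C1s1 stood out there at 5.56 ± 0.17, with ratios within experiments from 4.94 to 6.59 and only 18 to 87 counts in the airlift libraries. Hc at 0.60 ± 0.13 was the smallest rise. The comparisons with day 4 controls, airlift and fresh cells share libraries and are not independent of each other.

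Levels of different genes were set side by side per kilobase of exon (CPM per kb, lengths from GENCODE M21). In fresh cells Hc was highest at 221 ± 41.2 CPM per kb, then C3 at 160.2 ± 9.15 and Cfb at 19.4 ± 2.74 (SD, n = 3). At airlift the order was C3 at 66.3 ± 4.42, Cfb at 24.5 ± 1.81 and C1ra at 2.77 ± 0.24 CPM per kb (SD, n = 6). With NTHi it was C3 at 436 ± 49.3, Cfb at 248 ± 44.1, C1ra at 18.4 ± 1.53 and C1s1 at 18.1 ± 3.73 CPM per kb, of which the C1 proteases did not differ beyond their spread (SD, n = 7). In controls Cfb at 84.9 ± 25.2 and C3 at 79.3 ± 10.1 CPM per kb did not differ beyond their spread either, and Hc followed at 17.8 ± 3.11 CPM per kb. Gm20547 overlaps 79.5% of the Cfb exons on the same strand, and how such reads were assigned is not given. The place of Cfb per kb is therefore uncertain. C4b was last in both day 4 groups, at 0.237 ± 0.10 CPM per kb with NTHi and 0.463 ± 0.16 in controls.

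Summed over the 9 genes, CPM averaged 2317 ± 196 in fresh cells, 437 ± 26.3 at airlift, 3085 ± 316 in day 4 NTHi cultures and 791 ± 130.0 in day 4 controls. Hc made up 59.5% of that sum in fresh cells and 1.65% at airlift. With NTHi it made up 0.364%, against 14.2% in controls, while C3 made up 72.7% with NTHi and 51.8% in controls. These shares are of counts and so weigh longer genes more.

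**Figure D3:**
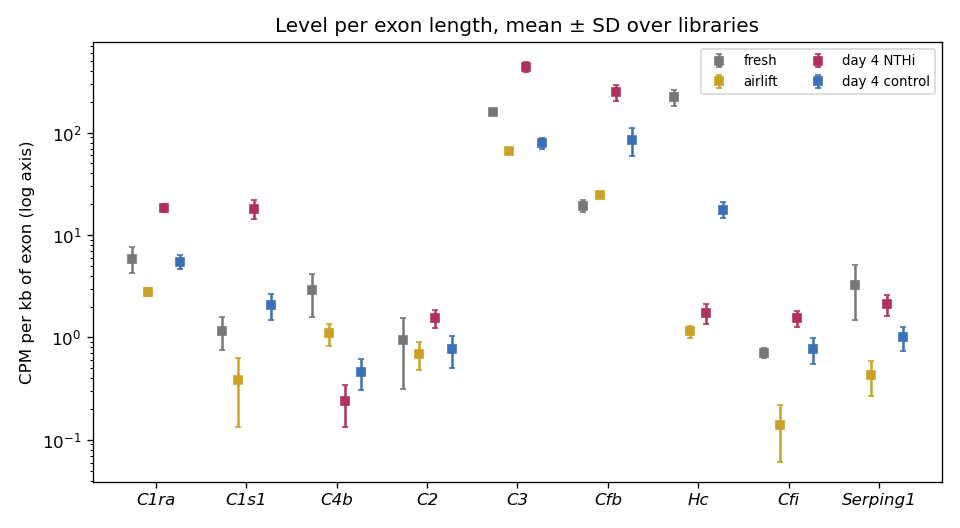
Mean level with SD of the 9 genes in CPM per kb of exon (log axis), in fresh cells (n = 3), at airlift (n = 6) and in day 4 NTHi and day 4 control cultures (n = 7 each). Hc is highest of the 9 in fresh cells at 221 CPM per kb, and C3 in NTHi cultures at 436 CPM per kb.

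Across the 23 libraries, the genes whose log2 CPM followed C3 most closely among 11601 genes were Tnfaip2 (Pearson r = 0.99), Lcn2 (0.98), Rgs16 (0.98), Vnn3 (0.98) and Steap4 (0.98). Lcn2, which encodes an iron-siderophore binding protein, had 9048 CPM with NTHi and 153 CPM in controls on average. Those closest to Hc were Daam2 (0.98), Antxr1 (0.98), Thbs3 (0.97), Napsa (0.97) and Fmo2 (0.97). Napsa, an alveolar type 2 marker, averaged 33.0 CPM with NTHi and 94.8 CPM in controls. These correlations describe libraries that share groups and experiments, and carry no test.

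The rest of the complement system was followed in a list of 50 further genes. With NTHi, 34 of them were tested, of which 7 were called higher, 14 lower and 13 not called (edgeR), where 20.1% of all genes tested were called higher and 20.4% lower; the median log2 fold change was -0.21, against 0.00 over all genes. By role, 5 of 8 tested genes of the recognition group, in which the protease gene Masp1 was counted, fell and 2 rose, 6 of 8 receptors fell and 1 rose, and 5 of 6 membrane regulators were not called and 1 fell. Of the 5 tested soluble regulators 2 fell and 1 rose, and of the 5 further proteases and convertase parts 2 rose.

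C1q, the recognition part of C1, went against its proteases. C1qa averaged 0.568 ± 0.19 CPM with NTHi and 8.40 ± 2.49 CPM in controls (SD, n = 7 each), with no overlap. The log2 fold changes were -3.87 ± 0.25 for C1qa, -3.34 ± 0.21 for C1qb and -4.68 ± 0.22 for C1qc (edgeR, adjusted p = 1.01e-08, 7.35e-09 and 3.58e-10). Macrophages are the usual source of C1q. Their 13 marker genes summed to 1647 to 3118 CPM with NTHi and 1397 to 2657 CPM in controls, with 9 called lower, 2 higher and none at 0 in either group. Among them Siglecf averaged 1.78 CPM with NTHi and 28.8 CPM in controls, Marco 50.05 and 393 CPM, and Mpeg1 406 and 675 CPM. Cd14, at 1636 and 204 CPM, made up much of the sum with NTHi, and Adgre1 averaged 90.7 and 39.8 CPM. The part of macrophages in the fall of C1q was not tested.

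The anaphylatoxin receptors, which bind C3a and C5a, were lower with NTHi. C5ar1 averaged 7.05 ± 2.55 CPM with NTHi and 21.8 ± 5.49 CPM in controls, a log2 fold change of -1.65 ± 0.21 (edgeR, adjusted p = 1.35e-05). C5ar2 fell by 1.40 ± 0.26, with overlapping ranges and a call lost in experiment B alone (-0.82, edgeR, adjusted p = 0.0824). C3ar1 was at the threshold, with -0.56 ± 0.21 (edgeR, adjusted p = 0.049), and lost its call with DESeq2 and when any 1 of 10 of the 14 libraries was left out. Cd93, a receptor of myeloid and endothelial cells once proposed to bind C1q, fell by 2.08 ± 0.20. Markers of neutrophils, 7 genes, summed to 42.4 to 170.5 CPM with NTHi and 7.84 to 22.0 CPM in controls, nearly all from Mmp8, while Mpo, Elane and Cxcr2 had no count in NTHi cultures.

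Among inhibitors, Cd55, which speeds the decay of convertases on cells, averaged 151 ± 17.6 CPM with NTHi and 159 ± 22.8 CPM in controls and was not called (-0.07 ± 0.07, adjusted p = 0.48). Cd59a, an inhibitor of the membrane attack complex, was not called either (-0.22 ± 0.09, adjusted p = 0.0637), though it was with library totals alone and without control A1, NTHi A2 or control C2. Clu, which encodes clusterin, a soluble inhibitor of that complex, had the highest CPM of the list, at 42720 ± 3051 CPM with NTHi and 30110 ± 2700 CPM in controls, a log2 fold change of 0.51 ± 0.08 (edgeR, adjusted p = 6.72e-05). Vtn, the gene of another such inhibitor, had 0 counts in NTHi cultures and 2 counts in controls in all.

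Of the remaining convertase genes, Cfp (properdin) at -0.10 ± 0.17, C4a at 0.21 ± 0.22 and Cfd (factor D) at 0.69 ± 0.68 on the log2 scale were not called. Without the NTHi library B2, which had 12.7 CPM of Cfd against 0.627 to 1.33 CPM in the other NTHi libraries, the log2 fold change of Cfd was -0.34. C1rb was called higher at 1.81 ± 0.31, on at most 22 counts a library, and C1s2 was left out by the filter. Masp1, a protease of the lectin pathway, fell by 0.98 ± 0.17, to 2.16 ± 0.49 CPM with NTHi against 4.27 ± 0.96 CPM in controls. In the 3 fresh libraries Masp1 had 0 counts, which allows up to 0.0355 CPM by counting error alone.

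**Figure D4:**
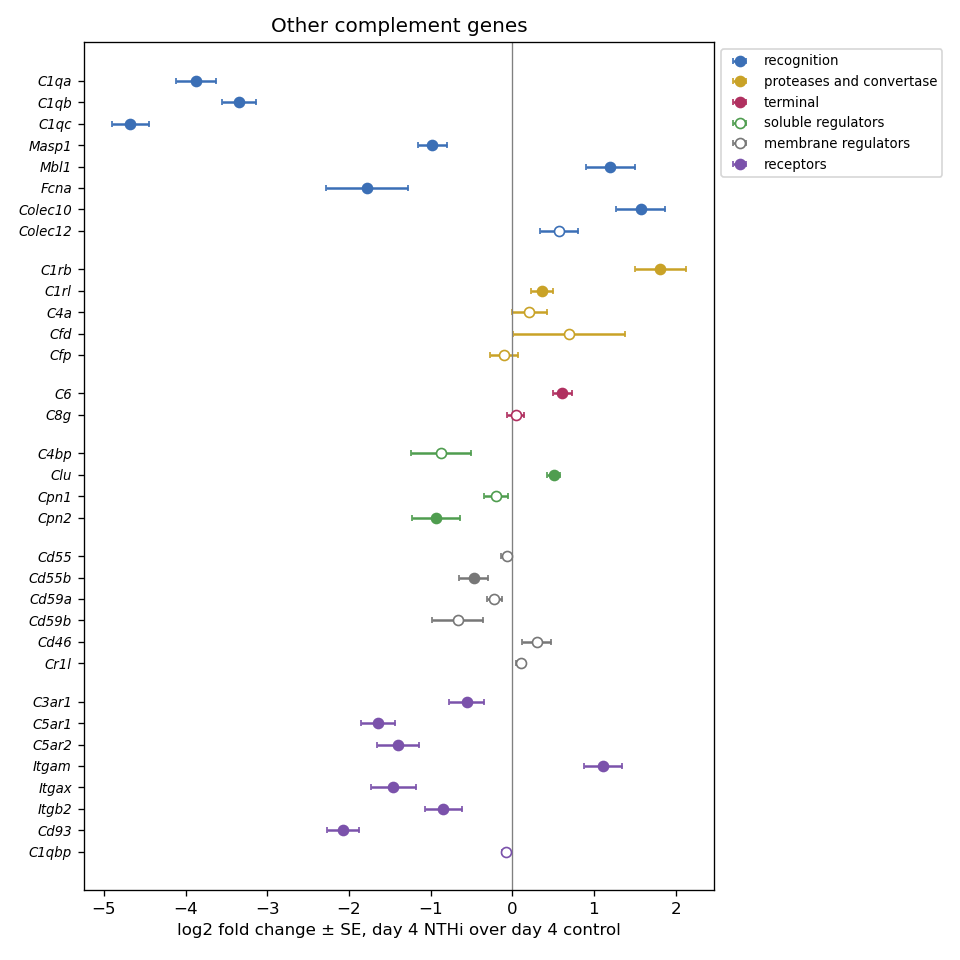
Log2 fold changes with SE, day 4 NTHi over day 4 control, of the further complement genes that were tested and are reported here, coloured by role; filled points were called at an adjusted p below 0.05. C1qa, C1qb and C1qc lie farthest to the left, at -3.87, -3.34 and -4.68, and C1rb farthest to the right at 1.81.

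At airlift, 10 of 38 tested genes of this list were higher than in fresh cells and 22 lower, where 37.9% of all genes were called higher and 36.7% lower. C6, a part of the membrane attack complex, fell 179-fold, to 0.847 ± 0.25 CPM at airlift (SD, n = 6) against 155 ± 15.6 CPM in fresh cells (SD, n = 3), a log2 fold change of -7.49 ± 0.15 (edgeR, adjusted p = 1.06e-17). Mbl1, a lectin pathway recognition gene, fell by 5.42 ± 0.32, and Cpn1, a subunit of the carboxypeptidase that trims C3a and C5a, by 2.91 ± 0.16. Cd55 fell by 1.47 ± 0.08 and Cd59a by 0.82 ± 0.13. Clu rose 25.1-fold, to 16750 ± 988 CPM at airlift against 675 ± 11.7 CPM in fresh cells. C3ar1 rose by 0.79 ± 0.15 while C5ar1 fell by 0.80 ± 0.16, a call lost with library totals alone (-0.31, adjusted p = 0.0811). C1qa, C1qb and C1qc fell by 1.06 ± 0.17, 1.23 ± 0.13 and 1.01 ± 0.15, and the summed macrophage markers stood at 1547 to 1680 CPM at airlift and 2900 to 3189 CPM in fresh cells, with 2 of 13 called higher and 6 lower. Most of that gap was Lyz1, at 82.4 CPM at airlift and 1405 CPM in fresh cells on average; without it the sums overlapped, at 1460 to 1588 CPM at airlift and 1531 to 1748 CPM in fresh cells.

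From airlift to day 4 without NTHi, 15 of the 38 genes were higher in controls and 14 lower, where 26.9% of all genes were called higher and 27.7% lower. Masp1 rose by 3.80 ± 0.30, Colec12 by 1.71 ± 0.15 and C6 by 1.71 ± 0.16 on the log2 scale. Of the 6 membrane regulators 3 were called higher, among them Cd55 by 1.22 ± 0.07 and Cd59a by 1.04 ± 0.11, and 2 lower, Cr1l and Cd46. C1qa fell by 0.98 ± 0.15, C3ar1 by 1.38 ± 0.12, C5ar1 by 0.55 ± 0.13 and Cfp by 0.70 ± 0.12. C4a and Cfd were not called, at -0.02 ± 0.19 and 0.21 ± 0.28. Fibroblast and mesenchyme markers, 12 genes, summed to 3091 to 5390 CPM in controls and 1387 to 1875 CPM at airlift, most of it Fn1, and to 2769 to 5129 CPM with NTHi. Of 10 tested with NTHi, 2 were called higher than in controls and 3 lower, and Tcf21 had no count in NTHi cultures. Fibroblasts are known to express C1ra, C1s1, Serping1 and C3, and their part in the changes of these genes was not tested.

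**Figure D5:**
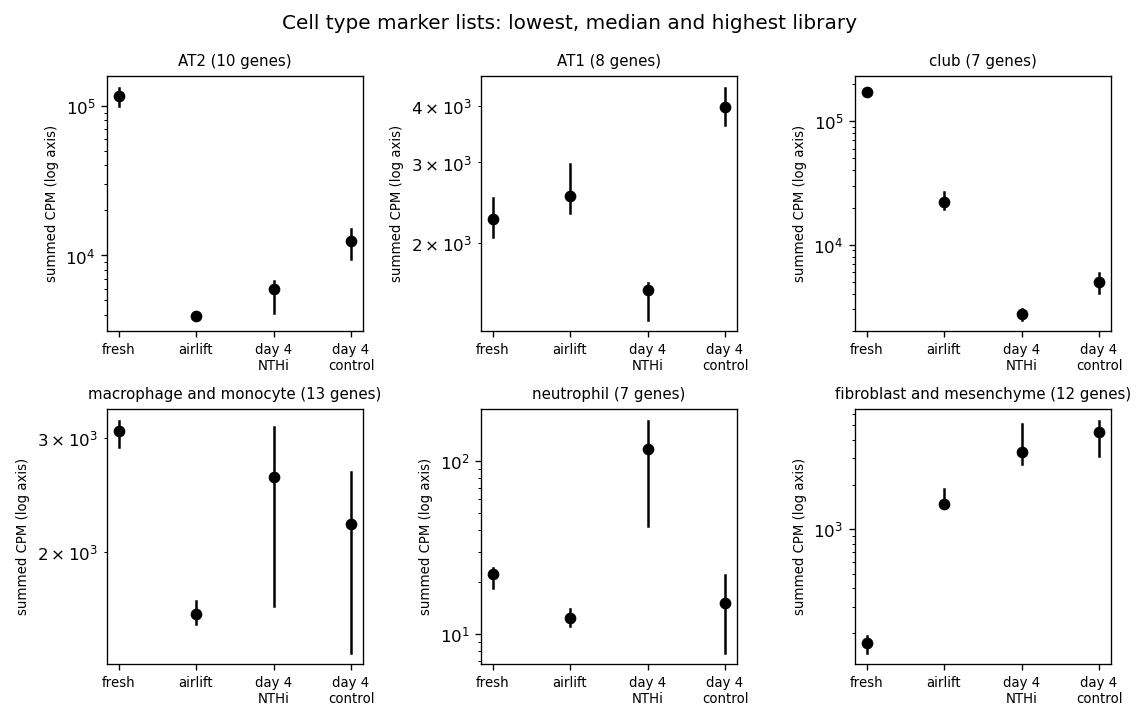
Summed CPM (log axis, with its own scale per panel) of 6 marker lists in each group, as the median library (point) and the range from the lowest to the highest (line). Alveolar type 2 markers are highest in fresh cells and are at 4138 to 6742 CPM in day 4 NTHi libraries against 9476 to 14940 CPM in day 4 control libraries.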

How the data were processed

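The authors deposited raw counts per gene, whole numbers that are not normalised, in 3 tables, 1 per experiment; groups and experiments come from the labels. Per the submitters' processing notes, the tools were STAR and DESeq2 and the build GRCm39. How reads were assigned to genes, and whether by strand, is not given in the sources used here. Each table held 41098 lines, of which 25 fragments of broken lines (at most 0.082% of a library's counts) were left out. Among counts below 20, 69.3% to 74.9% were even, so independent fragments may number fewer than the counts. All pairs of replicates differed by more than sampling noise (chi-square per degree of freedom 2.97 to 86.3).

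edgeR 4.0.16 in R 4.3.3 was used with filterByExpr (minimum count 10), TMM scaling and a quasi-likelihood F-test with group and experiment as terms. Benjamini-Hochberg adjustment ran over all genes, with 0.05 as the threshold. NTHi and control were fitted alone (14 libraries), the untreated stages together (16), and NTHi against airlift or fresh on all 23. SE was taken as |log2 fold change| / sqrt(F). CPM used TMM-scaled totals of the 23 libraries. The tests were tried on simulated counts drawn as independent libraries, which says nothing of replicates that are technical only. DESeq2 1.42.0 and the other alternatives are given in the closing section. The floor for 0 counts is 3 counts over the group and covers counting error only.

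The 9 genes, the list of 50 further complement genes and the marker lists were chosen with earlier results of these data known. Named were the 9 genes, 15 genes of the wider list whatever their values (1 of which is not reported here), up to 3 others of that list with the smallest p per comparison, and the 5 genes most correlated with C3 and with Hc (average log2 CPM of at least 2). Exon lengths and overlaps are from GENCODE M21 and promoters from RefSeq, both of build GRCm38. A planned search of protein sequences was not run.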

Additional observations from a re-analysis of the deposited data

Results flagged for a closer look

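In 88 groups of 6 or 7 libraries, over the 9 genes and the named genes of the wider list, a library was marked when it lay far outside the others' range; chance marks about 1 in 20 groups, and 4 were marked. None concerned the 9 genes. The NTHi library B2 had 12.7 CPM of Cfd, against 0.627 to 1.33 CPM in the other NTHi libraries. The airlift library B1 had 0.445 CPM of C1rb, against 0.0527 to 0.100 CPM in the others. The airlift library A2 had 18.9 CPM of C1qa, against 15.3 to 16.6 CPM in the others. The control library A2 had 0.0495 CPM of Vtn, from 2 counts, and the other controls had 0.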

How the results depend on the processing

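Direction and call held for most values: in refits of single genes among the 9, 1777 values kept both, 34 lost a call, 12 gained one and 22 turned sign, 19 of these with no call in either fit. Among the named further genes 24 turned sign, none called in either fit. With a minimum log2 fold change of 1, genes called among the 9 were 4 higher and 1 lower for NTHi over control. For control over airlift they were 4 and 0. For control over fresh 1 was called higher, C4b, Hc and Serping1 stayed lower, and C3 lost its call. In airlift over fresh only C1ra lost its call. The calls of C2, Cfi and Serping1 were lost in NTHi over fresh, and those of C2 and Hc in NTHi over airlift. All genes called then numbered 542 for NTHi over control, 4580 for airlift over fresh, 1144 for control over airlift, 4979 for control over fresh, 5708 for NTHi over fresh and 1804 for NTHi over airlift. For NTHi over control, 1 gene was lower in experiment B alone and 1 in C alone, C4b no longer being called (-0.94 and -0.82). C2 lost its call in A alone and in C alone. Of the named further genes, Clu and C1rb lost theirs in A alone. In B alone C1rb, C5ar2 and C3ar1 did, and in C alone Masp1 and C3ar1. All genes called numbered 3389, 3067 and 2617 in experiments A, B and C alone, where fewer libraries were fitted. Experiment C alone gave 5020 for control over airlift and 6726 for NTHi over airlift. For airlift over fresh, 1 gene (Cfb) was called higher, against 0, with library totals alone, no filter, counts summed per experiment and group, experiment A or B alone, without experiment C and without the libraries that stand apart (a setting chosen after seeing the data); leaving out 1 library at a time gave 0 to 1. Sign turned with a call in the refit for C1ra (0.37, library totals alone) and C2 (1.15, experiment A alone) in control over fresh. For Serping1 in NTHi over fresh the call was in the main fit (-0.63). Its refit in experiment A alone gave 0.12 and was not called. The sign turned without a call in either fit as follows, with the range when 1 library at a time was left out. In control over fresh, C1ra was 0.29 in experiment B alone and 0.055 without C (-0.24 to 0.065), C2 0.23 with library totals alone and 0.22 without C (-0.62 to 0.16), and Cfi -0.003 with DESeq2 size factors, -0.005 with DESeq2's test, -0.18 and -0.31 in A and B alone, -0.26 without C and -0.037 without the libraries that stand apart (-0.21 to 0.21). C2 was 0.13 with library totals alone and 0.79 in A alone in airlift over fresh (-0.74 to 0.035), and -0.079 in C alone in control over airlift (-0.066 to 0.23). In control over airlift, Cfd was -0.003 without A and -0.30 in B alone, and C4a 0.001 with no filter, 0.12 without A, 0.006 and 0.23 in B and C alone and 0.039 with the replicate block (-0.13 to 0.068). In NTHi over control, Cfp was 0.24 in B alone and 0.021 without C (-0.21 to 0.007), Cfd -0.77 and -0.16 in A and C alone and -0.40 without B (-0.34 to 0.97), Cd55 0.16 in A alone and 0.012 without C, Cd59a 0.012 in A alone and C4a -0.16 in B alone. The causes were not tested. Replicate numbers did not pair the libraries (correlations of deviations from -0.49 to 0.13 for NTHi and control); with the replicate block, NTHi over control still gave 7 higher and 2 lower among the 9 genes and 5982 of all genes, and no call of the 9 genes changed. At these depths Cfi, C1s1 and Serping1 rest on as few as 4, 18 and 19 counts a library.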
